A study of Caenorhabditis elegans with 4 samples.

Results

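Chromosome III carried 920 of the 4256 NFYA-1 peaks in the combined ChIP-seq list of this Caenorhabditis elegans study, and these 920 regions, taken by chromosome name alone, are described here. The ChIP replicate 1 list held 701 peaks on III out of 3037, and the ChIP replicate 2 list held 521 out of 2188. The other autosomes (I, II, IV and V) held 2766, 1984 and 1421 peaks in the combined, replicate 1 and replicate 2 lists and serve as the comparison. Chromatin came from L3 hermaphrodites of strain OP404, raised at 20 °C and fixed in 2% formaldehyde. The genotype is unc-119(ed3) III with the transgene wgIs404, which encodes NFYA-1 tagged with TY1, GFP and FLAG and carries unc-119(+) as a rescue, so every library comes from animals with a mutation on chromosome III and with a tagged nfya-1 transgene, while the genotype lists no mutation of nfya-1 itself. Per the labels, the fusion follows the normal expression pattern of the gene. Anti-GFP antibodies precipitated the tagged protein from whole larvae, so a peak sums over all cells that express the transgene, and weak occupancy in many cells cannot be told apart from strong occupancy in few. There were 2 ChIP samples and 2 input samples. The inputs had no peak list of their own here, and nothing in the labels says whether the replicates were separate cultures.

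NFYA-1 is a DNA-contacting subunit of NF-Y, a heterotrimer with NFYB and NFYC subunits that binds CCAAT boxes in promoters. In C. elegans, NF-Y is known to limit expression of the Hox gene egl-5, which lies on chromosome III together with the Hox genes lin-39, ceh-13 and mab-5. Worm autosomes have a gene-dense central region with little recombination, flanked by arms that recombine more and hold more repeats. Peak positions are on the WS180 build and were not joined to genes or to sequence here. Each peak carries the q-value that the authors' caller, PeakSeq, gave it. Strength below means −log10 of that q-value.

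Chromosome III was denser in NFYA-1 peaks than each of the other autosomes. It had 66.8 peaks per Mb in the combined list (95% Poisson interval 62.6 to 71.3), against 40.3 per Mb over the other autosomes (38.8 to 41.8). In the replicate 1 list the densities were 50.9 per Mb on III and 28.9 per Mb on the other autosomes, and in the replicate 2 list they were 37.8 and 20.7 per Mb. The ratio was thus 1.66 in the combined list (95% interval 1.54 to 1.79; exact binomial p = 4.39e-37), 1.76 in replicate 1 (1.61 to 1.92) and 1.83 in replicate 2 (1.65 to 2.02). Taken singly, the ratio of III to the next densest autosome, chromosome I, was 1.37 (1.24 to 1.51; exact binomial p = 2.00e-10, adjusted over 4 pairs). It was 1.48 to IV, 1.68 to II and 2.20 to V, each with a smaller adjusted exact p. The peaks of III covered 3.93% of its length, against 2.64% on the other autosomes. Densities use the largest peak coordinate as the length (13.77 Mb for III), and the intervals and exact tests treat peaks as independent, which neighbouring peaks are not.

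The same difference was seen when 500 kb bins replaced single peaks as the unit. The 27 full bins of III held a median of 35 combined peaks (range 11 to 55), and the 135 full bins of the other autosomes a median of 19 (range 0 to 45). Of the III bins, 21 (77.8%) lay above the median of all autosomal bins, against 59 (43.7%) of the others (Fisher's exact p = 0.00140). In the replicate 1 list the medians were 26 on III and 14 elsewhere, and in replicate 2 they were 19 and 10, with Fisher's exact p = 9.29e-05 and 0.000206. These tests treat bins as independent, which neighbouring bins of a chromosome are not. The bin distributions overlapped: the sparsest bins of III lay below the typical bin of every other autosome. At the dense end, 11 of 27 III bins held 40 or more combined peaks, against 1 of 135 bins elsewhere.

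**Figure D1:**
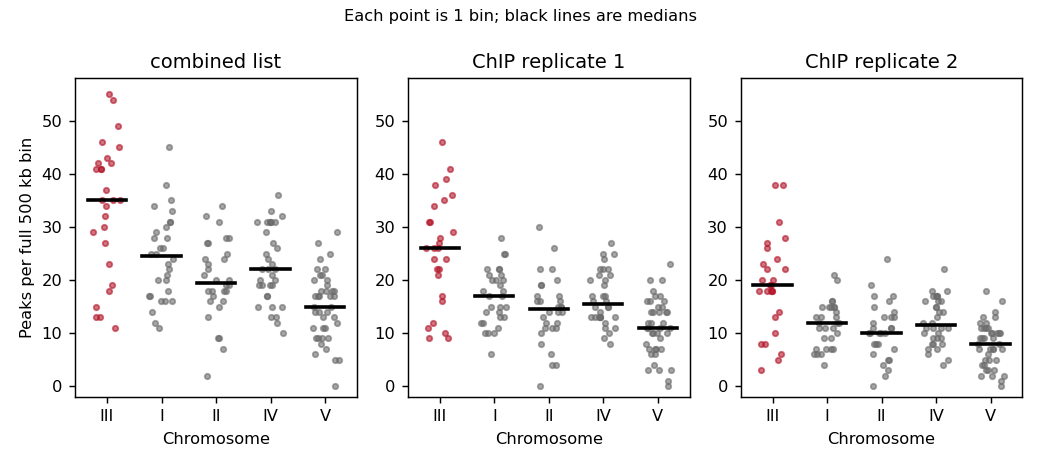
Peaks per full 500 kb bin (vertical axis) on chromosome III (red) and on the other autosomes (grey), in the combined, replicate 1 and replicate 2 lists; each point is 1 bin and black lines are medians. The III median is the highest in all 3 panels (35, 26 and 19 peaks), and the III bins spread from 11 to 55 in the combined list.

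Along the chromosome the left end was sparse and the rest was dense. The 5 bins with the fewest combined peaks were the leftmost 5, with 15, 13, 11, 18 and 13 peaks from 1 to 2500000. Together these 2.50 Mb held 70 combined peaks, or 28.0 per Mb (21.8 to 35.4), while the remaining 11.27 Mb held 850, or 75.4 per Mb (70.4 to 80.7). The replicates showed the same step, at 23.2 and 57.0 peaks per Mb in replicate 1 and at 15.2 and 42.9 per Mb in replicate 2. The limit at 2.5 Mb was drawn after the counts were seen, so these densities are a description. From there the count climbed to 27 in bin 6, 37 in bin 7, 42 in bin 8 and 54 in bin 9 (4000001 to 4500000), the second densest bin of III.

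**Figure D2:**
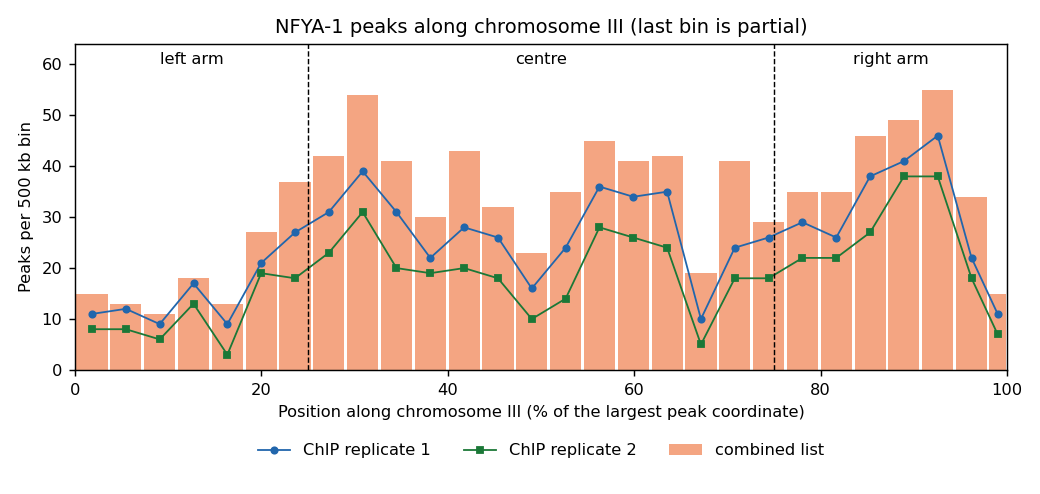
Peaks per 500 kb bin (vertical axis) against position along chromosome III as a percentage of the largest peak coordinate (horizontal axis), for the combined list (bars), replicate 1 (circles) and replicate 2 (squares); dashed lines mark the limits of the central 50%. The leftmost 5 bins hold 11 to 18 combined peaks, bin 9 holds 54, bin 19 dips to 19, and bin 26 in the right arm holds 55.

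The densest bin was bin 26, from 12500001 to 13000000, with 55 combined peaks, 46 in replicate 1 and 38 in replicate 2. Bin 9 ranked 2 in the combined list and 3 in each replicate, with 54, 39 and 31 peaks. Bin 25, from 12000001 to 12500000, held 49, 41 and 38, and shared the top place in replicate 2 with bin 26. Next in the combined list were bin 24 (11500001 to 12000000, with 46, 38 and 27 peaks) and bin 16 in the centre (7500001 to 8000000, with 45, 36 and 28 peaks). Bins 24 to 26 thus formed a dense stretch of 1.5 Mb with 100.0 combined peaks per Mb, which made up 10.9% of the length and 16.3% of the peaks of III. Of its 150 peaks, 99 (66.0%) were found in both replicates, against 53.7% over the whole chromosome. The share was 54.3% in bin 24, 75.5% in bin 25 and 67.3% in bin 26. High shares were not limited to dense bins: bin 4 of the sparse left end had 72.2%, while bin 5 had 23.1%. The stretch was chosen after the counts were seen, and its share was not tested. The centre was uneven too. Bin 19, from 9000001 to 9500000, held 19 combined peaks, 10 in replicate 1 and 5 in replicate 2, between neighbours with 42 and 41 combined peaks. Over the 27 full bins, counts in the replicates had a Spearman's rho of 0.95 and a Pearson's r of 0.97, given as a description since neighbouring bins and both lists share the same chromosome.

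The chromosome was then divided into a left arm and a right arm, each 25% of the largest coordinate, and a centre. The right arm of III stood apart most. It held 280 combined peaks, or 81.3 per Mb (72.1 to 91.4), against 32.7 per Mb (30.1 to 35.5) over the right arms of the other autosomes. The ratio was 2.48 (2.15 to 2.87; exact binomial p = 5.30e-31, adjusted over 3 segments), and it was 2.61 in replicate 1 and 2.67 in replicate 2. Among the 8 arms of the other autosomes, the densest was the right arm of II at 43.0 per Mb (36.7 to 50.1). Without bins 25 and 26, left out after the counts were seen, the right arm of III still had 72.0 peaks per Mb and a ratio of 2.20.

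The centre of III held 511 peaks, or 74.2 per Mb (67.9 to 80.9), against 47.1 per Mb (44.8 to 49.4) in the other centres. Its ratio was 1.58 (1.42 to 1.74; exact binomial p = 1.09e-17, adjusted over 3 segments). The left arm, with 129 peaks, had 37.5 per Mb (31.3 to 44.5) against 34.2 per Mb (31.5 to 37.1) in the other left arms. That ratio, 1.10 (0.899 to 1.33), did not pass (adjusted exact p = 0.341), and the left arms of I and IV were denser, at 41.1 and 42.4 per Mb. When chromosomes were cut into 3 equal lengths, so that the left segment reached further into the dense part, the ratio of the left segment was 1.45 (adjusted exact p = 8.39e-07). The call for the left arm therefore depends on where the limit is set.

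**Figure D3:**
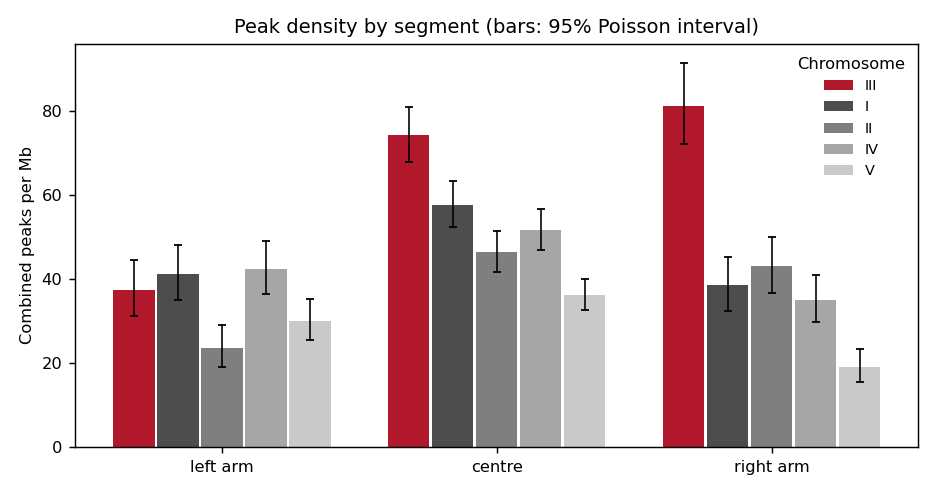
Combined peaks per Mb (vertical axis) in the left arm, centre and right arm of chromosome III (red) and of I, II, IV and V (greys), with 95% Poisson intervals as error bars. The right arm of III reaches 81.3 per Mb, above all other arms (19.1 to 43.0), while its left arm at 37.5 lies among the other left arms (23.6 to 42.4).

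The arms of III were unequal. The right arm held 2.17 times as many combined peaks as the left arm over the same length (280 against 129; exact binomial p = 6.24e-14). It held 223 against 102 in replicate 1 and 177 against 71 in replicate 2. The right arm had 68.5% of the arm peaks on III and 48.9% over the other autosomes pooled (Fisher's exact p = 7.32e-12), but the pooled share joins chromosomes with opposite tilts. Chromosome II leaned to the right as III did, with 164 right arm peaks and 90 left arm peaks (64.6% right), and its share did not differ detectably from that of III (odds ratio of III to II 1.19, 0.843 to 1.68; Fisher's exact p = 0.309, adjusted over 4 pairs). In the replicates the share was 68.6% on III and 70.7% on II in replicate 1, and 71.4% and 72.8% in replicate 2. The right arm shares of I (48.3%), IV (45.3%) and V (38.9%) were lower than that of III, with the largest of their adjusted Fisher's exact p at 1.06e-07. These pairs were compared after the counts were seen. Without bins 25 and 26 the right arm of III, at the 72.0 peaks per Mb given above, was still denser than its left arm at 37.5 per Mb. Left and right follow the coordinates of each chromosome, so arms set side by side need not correspond. The share of peaks in the centre was 55.5% on III and 58.5% on the other autosomes, a difference that did not pass (Fisher's exact p = 0.123; odds ratio 0.888, 95% interval 0.762 to 1.04).

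Gaps between peaks showed the same layout. The median distance between neighbouring combined peaks was 7.77 kb on III and 12.5 kb on the other autosomes. Stretches of 100 kb or more with no combined peak numbered 7 on III, or 5.08 per 10 Mb, against 99 elsewhere, or 14.4 per 10 Mb. They took up 7.57% of the length of III and 21.6% of the length of the others. Chromosome V weighed on the pooled value, with 46 of the 99 stretches and 35.8% of its length. On I, II and IV the share of length was 12.3%, 16.8% and 16.9%, with 9.29, 11.1 and 12.6 stretches per 10 Mb. Of the 7 on III, 6 lay in the left arm, 1 in the centre and 0 in the right arm, where the longest gap was 74.6 kb. The 5 longest were all in the leftmost 2.5 Mb. The longest ran from 1202531 to 1418621 (216 kb), and the next from 131998 to 343681 (212 kb), each holding 1 peak of replicate 1 and none of replicate 2. They were followed by 2172494 to 2323758 (151 kb, with 1 replicate 1 peak), by 1950814 to 2089445 (139 kb) and by 503021 to 623736 (121 kb), the last 2 free of replicate peaks.

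Close spacing was more common on III. Of 919 gaps, 197 (21.4%) were 2000 bp or shorter, against 427 of 2762 (15.5%) on the other autosomes (odds ratio 1.49, 1.23 to 1.81; Fisher's exact p = 4.72e-05). Taken singly, the share was 18.1% on IV, 15.6% on V, 14.8% on II and 12.9% on I. IV thus came nearest to III, and the single chromosomes were not tested against III. The shares were 17.3% on III and 12.0% elsewhere in replicate 1, and 14.4% and 9.32% in replicate 2. Runs of 3 or more peaks with gaps of 5000 bp or less held 323 of the 920 III peaks (35.1%, 32.0 to 38.3%), against 23.3% (21.7 to 24.9%) of those elsewhere. On IV the share was 28.0% (24.9 to 31.3%), and on I, II and V it was 20.0%, 22.0% and 22.4%. There were 87 such runs on III, of which 16 held 5 or more peaks. How much of the close spacing goes with the higher overall density was not tested.

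The run with most support lay in the right arm from 12152036 to 12164671. It held 7 combined peaks in 12.6 kb, all of them found in both replicates, with strengths between 17.0 and 90.4. A further run of 7 peaks, from 12218459 to 12234160 (15.7 kb), had 4 peaks in both replicates and 2 in neither. Runs of 6 peaks lay from 2863613 to 2881581, where 3 of 6 were found in both replicates, from 3672767 to 3684205, where 2 of 6 were, from 7520571 to 7536927, where 3 of 6 were, and from 12696594 to 12703481, where 3 of 6 were. The runs differed in strength: the first of these, in the left arm, spanned strengths from 4.26 to 85.8, while the one from 3672767 spanned 4.57 to 21.8.

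The regions described next are the 20 with the smallest combined q-values among III peaks that overlapped both replicates. They were also the first 20 of all 920 III peaks in that order, so the requirement of overlap left none out. They ranked between 7 and 70 in the whole list. Of the 20, 10 lay in the right arm, 9 in the centre and 1 in the left arm. All 920 III peaks were unevenly placed too, at 280, 511 and 129, and the 2 placements were not tested against each other. The median width of the 20 regions was 945 bp (386 to 4408 bp), and 4 of them reached 2000 bp. All 20 were stronger in replicate 1 than in replicate 2. So were 84.2% of all III sites matched one to one between the lists, and 81.0% of those on the other autosomes. For 17 of the 20 the best overlapping peak was among the 100 strongest of each replicate, which the choice by combined q-value favours.

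The leading region, from 11828841 to 11829929 in the right arm, had a strength of 131 in replicate 1 and 106 in replicate 2, and 198 in the combined list. It was nearly equal in width in all lists, at 1097, 973 and 1089 bp. In the centre, the strongest region ran from 4281727 to 4282836, with strengths of 96.7 and 74.5 in the replicates and 145 in the combined list. In the left arm, the region from 1617828 to 1621184 was the only one of the 20. It lies in bin 4 of the sparse left end. It was the strongest III region in each replicate, with strengths of 142 in replicate 1 (rank 12) and 135 in replicate 2 (rank 9), yet its combined strength was 144 (rank 20). At the typical matched site of III the combined strength was 0.951 times the sum of the replicate strengths, but here it was 0.520 times that sum, the lowest value among the 20 regions. The next lowest of the 20 were 0.601, 0.661 and 0.662, and the highest was 1.60.

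**Figure D4:**
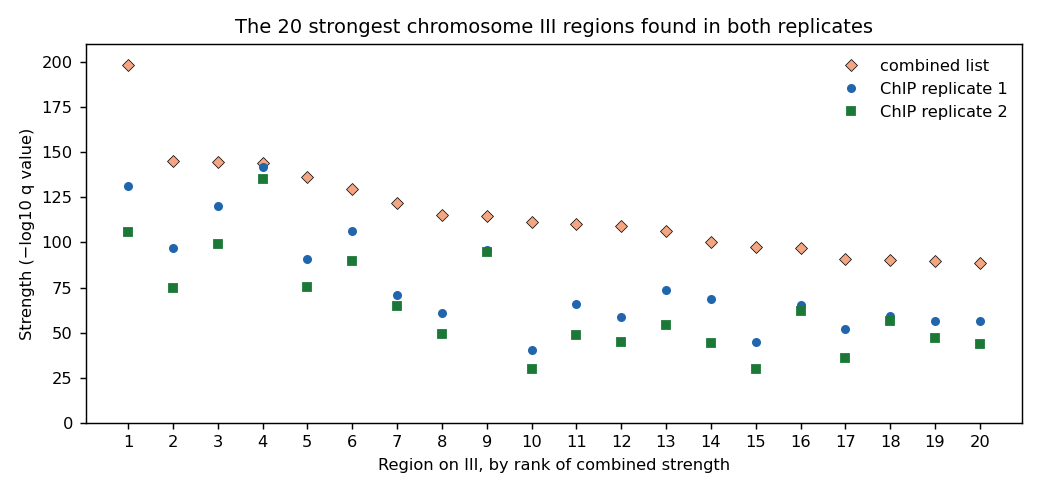
Strength (−log10 q-value, vertical axis) of the 20 strongest chromosome III regions in order of combined strength (horizontal axis), in the combined list (diamonds), replicate 1 (circles) and replicate 2 (squares, each the best overlapping peak). Replicate 1 lies above replicate 2 for all 20, and at the fourth region all 3 values fall between 135 and 144.

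Several strong regions of III were compact. The region from 12344760 to 12345261 measured 502 bp, with strengths of 106 and 89.7 in the replicates and 130 in the combined list. In the centre, the region from 9570727 to 9571181 measured 455 bp and had nearly equal strengths of 95.9 in replicate 1 and 94.7 in replicate 2. The narrowest of the 20, from 8461335 to 8461720 (386 bp), had 65.0 and 62.1. The 4 broad regions differed in how the lists ranked them. The widest, from 9050883 to 9055290 (4408 bp), had strengths of 51.7 and 35.8 in the replicates (ranks 88 and 116) and rank 63 in the combined list. The region from 8443338 to 8447314 (3977 bp) had 45.0 and 29.8 (ranks 122 and 179) and combined rank 57. The region from 11934872 to 11937140 (2269 bp) ranked similarly in all lists, at 39, 31 and 32 in replicate 1, replicate 2 and the combined list, and the left arm region described above (3357 bp) ranked higher in both replicates than in the combined list. The region from 11980309 to 11981890 was called as 2 peaks in each replicate, the better of which had 40.2 and 29.7, while its combined strength as a single peak was 112.

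The excess of peaks on III was largest among strong peaks. Autosomal combined peaks were ranked by q-value and divided into groups of 20%. In the strongest group III had 17.1 peaks per Mb, against 7.31 on the other autosomes, a ratio of 2.33 (1.99 to 2.73). The ratio was 1.53, 1.64 and 1.53 in the next groups and 1.35 (1.12 to 1.61) in the weakest. In the right arm the strongest group had 27.9 peaks per Mb on III and 7.69 elsewhere, a ratio of 3.63 (2.76 to 4.75). The corresponding ratio was 2.02 (1.60 to 2.53) in the centre and 1.50 (0.971 to 2.26) in the left arm. These ratios by strength are given with intervals and without a test.

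As a group, III peaks were therefore somewhat stronger. Of the III peaks, 491 of 920 (53.4%) lay in the stronger 50% of autosomal peaks, against 1352 of 2766 (48.9%) elsewhere (odds ratio 1.20, 1.03 to 1.39; Fisher's exact p = 0.0202). Median strength was 10.8 on III and 9.59 elsewhere in the combined list, 8.97 and 8.19 in replicate 1, and 9.20 and 7.85 in replicate 2. Single combined medians were 9.99 on IV, 9.90 on I, 9.35 on V and 9.19 on II, and were not tested against III. The difference in shares passed in replicate 2 (55.7% against 47.9%, Fisher's exact p = 0.00295) but not in replicate 1 (53.1% against 48.9%, p = 0.0589). Within III the median strength was 12.7 in the right arm, 9.66 in the centre and 11.4 in the left arm. The other autosomes pooled had 11.2, 9.27 and 9.47 in the same segments, so in the pool the right arm was also the strongest segment. This did not hold on V, where the left arm had 10.8 and the right arm 9.47. On I the segments were nearly level, at 9.99 in the right arm, 9.88 in the centre and 9.90 in the left arm. Single right arms of the other autosomes ranged from 9.47 on V to 12.8 on IV, the latter close to that of III.

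The III peaks were slightly narrower. Their median width was 418.5 bp (444 bp elsewhere), and 425 of 920 (46.2%) exceeded the autosomal median of 438 bp, against 51.2% of the others (odds ratio 0.819, 0.703 to 0.953; Fisher's exact p = 0.00866). Single medians were 433 bp on I, 436.5 bp on II, 453 bp on IV and 463.5 bp on V, and were not tested against III. The median was 408 bp on III and 432 bp elsewhere in replicate 1 (share test, Fisher's exact p = 0.00565), and 404 and 427 bp in replicate 2, where the share test did not pass (p = 0.0653). Peaks of 2000 bp or wider made up 2.39% of III and 3.76% of the others (Fisher's exact p = 0.0470), but in neither replicate did that difference pass. The widest III peak lay near the left end, from 345916 to 350620 (4705 bp), shortly to the right of the 212 kb gap, with 4063 bp in replicate 1 and 2715 bp in replicate 2. The widest peak elsewhere measured 11151 bp. The narrowest III peak, from 12590350 to 12590386 (37 bp), overlapped no replicate peak. Set beside peaks of similar strength, without a test, the III medians were the lower ones in all 5 groups of 20% described above: in the strongest 20% the medians were 580 bp on III and 673.5 bp on the other autosomes, and in the weakest 20% they were 344 and 381 bp.

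Replicate recovery was higher on III over all peaks, while within groups of similar strength no difference passed. On III, 494 combined peaks (53.7%, 50.4 to 57.0%) were found in both replicates, against 1326 of 2766 (47.9%, 46.1 to 49.8%) on the other autosomes (odds ratio 1.26, 1.08 to 1.47; Fisher's exact p = 0.00263). A further 196 were found in replicate 1 alone and 21 in replicate 2 alone. Neither replicate held 209 (22.7%), against 27.0% elsewhere (Fisher's exact p = 0.00923). By chromosome, the share in both replicates was 49.7% on IV (46.1 to 53.2%), 49.5% on V (45.6 to 53.5%), 47.9% on II and 44.8% on I. The intervals of IV and V overlapped that of III. The share in neither was 25.1% on V, 25.7% on IV, 26.8% on II and 30.3% on I. Single chromosomes were not tested against III for recovery. In the strongest 20% all 235 III peaks and all 502 others were found in both replicates. The shares were then 94.8% on III and 91.7% elsewhere, 44.5% and 45.6%, and 7.51% and 9.40%. In the weakest 20% they were 0.637% and 0.172%, or 1 peak each. The smallest adjusted p over the 5 groups was 0.905 (Fisher's exact test). Before adjustment the smallest was 0.193, for 94.8% against 91.7% (odds ratio 1.66, 0.780 to 3.93). In the strongest and weakest 20% nearly all or nearly no peaks were found in both replicates. Those groups could hardly show a difference, so the absence of a passing group is no measure of equal recovery. With the weaker 50% of combined peaks set aside, the difference did not pass either (89.2% on III and 86.5% elsewhere, Fisher's exact p = 0.140).

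**Figure D5:**
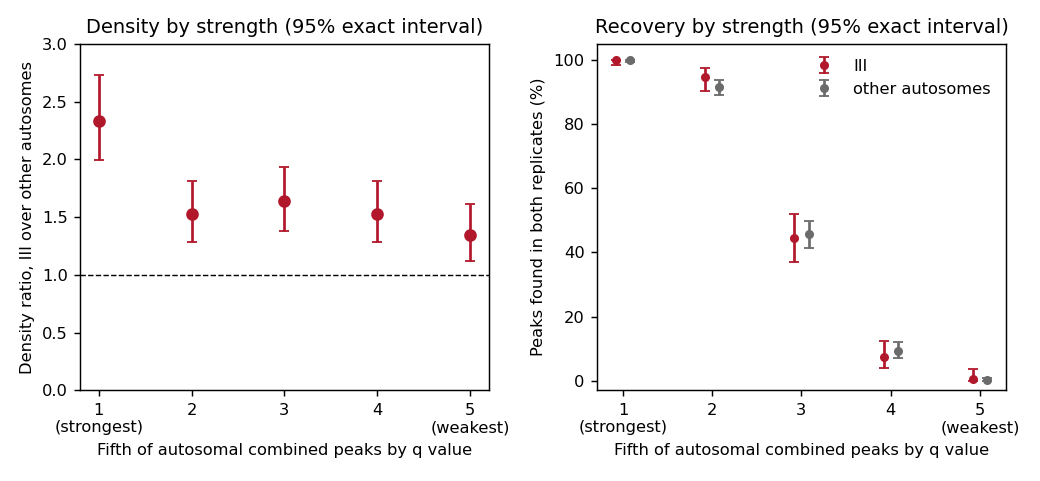
Left, density of combined peaks on chromosome III over that on the other autosomes (ratio, vertical axis) by group of 20% of autosomal peaks, from strongest (1) to weakest (5), with 95% exact intervals; right, the share of peaks found in both replicates (%) for III (red) and the other autosomes (grey). The ratio is 2.33 in group 1 and 1.35 to 1.64 in the other groups, and the intervals on the right overlap in every group.

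Recovery of one replicate in the other did not differ detectably. Replicate 2 held 496 of the 701 replicate 1 peaks of III (70.8%, 67.2 to 74.1%), against 67.5% elsewhere (odds ratio 1.16, 0.960 to 1.41; Fisher's exact p = 0.119). Replicate 1 held 499 of the 521 replicate 2 peaks of III (95.8%, 93.7 to 97.3%), against 94.6% elsewhere (odds ratio 1.30, 0.790 to 2.22; Fisher's exact p = 0.351). On III, replicate 1 peaks that replicate 2 lacked had a median strength of 4.69, against 13.2 for those it held. The strongest of the lacking ones lay from 4269518 to 4269857 (strength 11.6, rank 1065 in replicate 1). In the right arm 75.8% of replicate 1 peaks were found in replicate 2, against 68.6% in the centre and 67.6% in the left arm. This was not particular to III: the other autosomes pooled had 73.9%, 65.1% and 67.8% in the same segments. The right arms of IV (76.2%) and V (80.0%) lay above that of III, and those of I (69.5%) and II (72.3%) below it.

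Among combined peaks, the strongest with no replicate peak lay in the right arm from 12221412 to 12221680 (269 bp, strength 10.3, rank 1988), inside the run of 7 peaks from 12218459. The strongest with replicate 1 alone lay from 7499437 to 7499803 (strength 15.5), and the strongest with replicate 2 alone from 4561987 to 4562538 (strength 11.5). All 521 replicate 2 peaks of III and 692 of its 701 replicate 1 peaks overlapped a combined peak.

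At sites matched one to one, III showed the same tilt between replicates as the rest. Of 486 matched III sites, 409 (84.2%, 80.6 to 87.3%) were stronger in replicate 1, against 81.0% (78.8 to 83.1%) on the other autosomes. The odds ratio was 1.25, with an interval of 0.935 to 1.67 that includes 1. Median strengths at these sites were 13.0 and 9.35 in replicates 1 and 2 on III, against 11.5 and 8.11 elsewhere. The centres of the matched replicate peaks lay a median of 19.5 bp apart on III and 20.0 bp apart elsewhere. Across the matched III sites, Spearman's rho between the replicates was 0.89 for strength and 0.86 for width, given as a description because both lists come from the same strain and caller.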

How the data were processed

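Anti-GFP ChIP-seq peaks of NFYA-1 in L3 larvae were analysed from 3 lists deposited by the authors. Per the file headers, coordinates are on WormBase WS180 (1-based, as GFF3 has them), and each peak has a q-value (the authors' deposited p-value column). The caller named in the lists is PeakSeq. The sources used here do not name the aligner, the PeakSeq version, the control library or the method of combining replicates. Without read counts in the lists, depth is unknown. Peaks were assigned by their centres to chromosomes, 500 kb bins and segments. The largest coordinate in any list served as chromosome length. Overlap means 1 bp or more. Densities were compared by exact binomial tests and shares by Fisher's exact tests, two-sided, with Benjamini-Hochberg adjustment where stated; intervals are exact 95% ones (Poisson, Clopper-Pearson or conditional) and cover counting error only. The regions named are given by set rules: the 20 strongest found in both replicates, the strongest of each segment and status, extremes of width, bins, gaps and runs. Members, lists and tests were chosen with earlier results of these data known, and bin groups after counts were seen. Functions were tested on simulated data. Python 3.11.15, numpy 2.4.6, pandas 2.3.3 and scipy 1.17.1 were used.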

Additional observations from a re-analysis of the deposited data

How the results depend on the processing

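The 15 results were recomputed 131 times in all under other settings. The call was kept in 116 of these, and no direction was reversed. For replicate 2 peaks found in replicate 1, among the stronger 50%, both shares were 100%, so the difference had no direction. Of the recomputations, 48 were chosen after seeing the data. One of them, the right arm share without bins 25 and 26, shortens the right arm of III alone and is no measure of arm balance. Under these settings, all against pooled autosomes, the density ratio of III stayed between 1.50 and 1.86 and that of its right arm between 2.09 and 2.73. Against chromosome I alone the density ratio was 1.37, as given above. Settings that changed a call were the following, as III minus other autosomes in percentage points, and the cause was not tested. The share of peaks of 2000 bp or wider (-1.37) no longer passed at -1.09 to -0.843 in the replicate lists, -2.41 among peaks of both replicates, -1.22 without V, -1.18 without II and -1.29 at 1500 bp. The width share was -6.09 to -4.78 in the replicate lists (not passing in replicate 2) and no longer passed at -4.72 among peaks of both replicates. The strength share was 4.18 to 7.74 in the replicate lists (not passing in replicate 1). Among the stronger 50%, the shares in both replicates and in neither were 2.69 and -0.518, and the share in neither was -3.13 without I, none of which passed. With 3 segments of equal length, the left segment ratio was 1.45 and the centre share -4.15, both passing. With peak centres within 100 bp, the share of replicate 1 in replicate 2 was 4.46 and passed. No paired analysis was possible because replicate numbers are shared only between ChIP and input, and inputs had 0 files here. Unknown depth limits any reading of list length.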
